A study of Mus musculus with 36 samples.

Results

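Slc8a1 encodes the sodium-calcium exchanger NCX1, a plasma membrane transporter that moves calcium out of the cell in exchange for sodium and is best known from heart muscle and neurons. Circular RNAs (circRNAs) form when the end of an exon is joined backwards to the start of the same or an earlier exon, and the closed ring that results resists exonucleases. The large second exon of Slc8a1 is a textbook example of a circle made of 1 exon. All circRNAs with both ends inside Slc8a1 and on its strand were taken as its circles. There were 17 of them among the 33259 circRNAs with reads in either tissue, 13 of them with reads in hippocampus samples, 9 in frontal cortex samples and 5 in both.

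The samples came from male wild-type mice of strain C57BL/6, C57BL6/N in the study's methods, at 9 to 10 weeks of age kept on a 12 h light and 12 h dark cycle with lights on at 6 h. Hippocampus and frontal cortex were each collected at 6 zeitgeber times (ZT, hours after lights on), ZT1, ZT5 and ZT9 in the light and ZT13, ZT17 and ZT21 in the dark, with 3 replicates at each, 36 samples in all. No sample was treated, and every sample was total RNA depleted of ribosomal RNA. The sources used here do not say whether 2 samples with the same time and number came from the same mouse or whether replicates are separate mice, so p-values measure the spread between these samples. The measured quantity was the number of reads crossing each back-splice junction, which does not scale with the length of the circle. Whole tissue was sequenced, so fewer cells of a type and less RNA per cell cannot be told apart.

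Junction reads summed over all circRNAs ran from 6754 to 73252 per hippocampus sample (median 21923.5) and from 8107 to 34803 per frontal cortex sample (median 20301). Libraries that stood apart were hippocampus ZT1 replicate 3 with the most reads, hippocampus ZT13 replicate 1 with the fewest, and frontal cortex ZT9 replicate 3 with the fewest of its tissue. Differences of the exon 2 circle that one of them moved by more than 1.5 times are also given without it. Circles of hippocampal marker genes such as Prox1 and Zbtb20 summed to a median of 4586 CPM of circular reads (hippocampus) against 900 (frontal cortex). The cortical defining markers Rorb and Fezf2 had no circle with reads in either tissue.

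The main circle is exon 2 of Slc8a1 from its first base to its last, chr17:81647809-81649638 on the minus strand (GRCm38). In the annotation (GENCODE M21) it is the second of 12 exons of transcript Slc8a1-206, and its ends are the annotated exon boundaries. The exon is 1830 nt long, and 0.436% of the 210875 annotated internal exons are as long or longer. The upstream intron depends on the transcript, since Slc8a1-205 has another first exon. In Slc8a1-206 the exon lies between introns of 88670 nt upstream and 202215 nt downstream. It holds 31 bases of the 5′ UTR, the start codon and 1799 coding bases, 63.8% of the coding sequence of that transcript. Its length divides by 3 without remainder, and the reading frame that opens at the start codon meets no stop codon in a full turn of 610 codons. This describes the sequence, and translation was not measured.

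A second family of circles shared another splice acceptor, the start of exon 3, and closed it with the end of exon 9, 10 or 11. The exon 3 to 9 circle covers chr17:81428182-81445593, the exon 3 to 10 circle chr17:81408067-81445593 and the exon 3 to 11 circle chr17:81388810-81445593. With every exon of Slc8a1-206 between the ends kept, they would be 461, 737 and 995 nt long. These 3 and the exon 2 circle share no exon. The junctions that were counted are shown because they are what tells the 4 circles apart. Lower case is the end of the last exon, and capitals are the start of the exon it is joined back to.
exon 2 circle: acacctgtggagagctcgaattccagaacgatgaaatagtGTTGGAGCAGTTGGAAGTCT
exon 3 to 9 circle: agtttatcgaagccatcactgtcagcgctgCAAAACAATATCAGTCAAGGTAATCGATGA
exon 3 to 10 circle: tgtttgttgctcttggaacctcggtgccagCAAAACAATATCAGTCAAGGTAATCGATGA
exon 3 to 11 circle: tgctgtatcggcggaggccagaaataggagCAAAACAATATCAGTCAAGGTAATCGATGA
The capitals are identical in the exon 3 circles, and only the donor side differs among them.

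**Figure D1:**
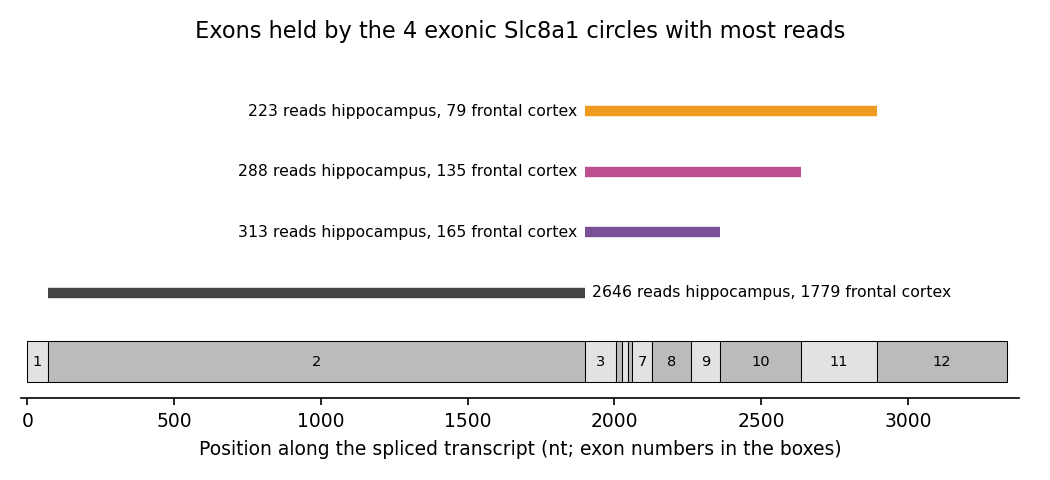
Exons of transcript Slc8a1-206 drawn to scale along the spliced transcript (x axis, nt), with a bar for the exons held by each of the 4 exonic circles with most reads and its summed junction reads beside it. The exon 2 circle covers exon 2 alone and the other 3 start together at exon 3, with no exon shared between the 2 kinds.

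The exon 2 circle was found in all 36 samples and was among the most abundant circRNAs of both tissues. It had 2646 reads in the hippocampus, with a lowest sample of 34, a median of 135.5 and a highest of 413. Frontal cortex samples held 1779 reads, with a lowest of 50, a median of 103.5 and a highest of 153. By summed reads it ranked 5 (hippocampus) and 7 (frontal cortex), and within single samples its rank ran from 4 to 16 and from 3 to 14. Counted over all its circles, Slc8a1 ranked 5 among hippocampus host genes and 11 among those of the frontal cortex.

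The 3 circles that start at exon 3 were rarer and were found in most samples. The one ending at exon 9 had 313 hippocampus reads (4 to 38 per sample, median 14.5) and 165 frontal cortex reads (0 to 20, median 9.5). The one ending at exon 10 had 288 (9 to 41, median 15) and 135 (0 to 19, median 6.5). The one ending at exon 11 had 223 (4 to 33, median 11.5) and 79 (0 to 10, median 4). All 3 were present in each of the 18 hippocampus samples, and in 14 of the 18 frontal cortex samples. Their order by reads was the same in both tissues, the shortest first. Of the reads of these 3 circles, the longest took 27.1% (hippocampus) and 20.8% (frontal cortex).

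One further circle, chr17:81507996-81510336, lies inside intron 2 with neither end at an annotated exon boundary. It had 26 reads in 7 hippocampus samples, at most 10 in a sample, and was found in at least 2 replicates at 2 of the 6 time points. It had 6 reads in 3 frontal cortex samples and never appeared in 2 replicates of a time point. The other 12 circles had at most 4 reads in a tissue, and none was found in 2 replicates of a time point. Of these, 7 had both ends at exon boundaries, 2 had one end there and 3 had none. Only 1 of the 17 circles joined exon 2 with later exons, with 2 reads in 1 hippocampus sample. The caller lists no count below 2, so a single read is not seen.

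Short matches to microRNA seeds were counted in the exon 2 circle, across its junction too, because Slc8a1 circles are often discussed as microRNA binders. A match is the 7 bases complementary to bases 2 to 8 of the microRNA, on the strand of the transcript only. The circle held 1 match to miR-128-3p, spelled CACTGTG, whose place in the exon is shown with its flanks and the match in capitals.
chr17:81648287-81648313, minus strand: acttgagcacCACTGTGtttgttgact
At least 1 such match was present in 21.5% of the 870 other annotated internal exons within 20% of its length (1464 to 2196 nt). For miR-133b-3p, spelled GGACCAA, the circle held 1 match and 10.6% of those exons held at least 1. For miR-7a-5p, spelled GTCTTCC, it held 0, against 14.9% of those exons with at least 1. The microRNA sequences are those of RefSeq (GRCm38.p6). Binding was not measured.

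The first comparison asked whether the Slc8a1 circles differed between hippocampus and frontal cortex. Read counts were compared by edgeR's quasi-likelihood test with TMM scaling, which puts samples on a common scale from the bulk of circRNAs, and p-values were adjusted by Benjamini-Hochberg over all 710 circRNAs tested. All 4 exonic circles were higher in the hippocampus, the exon 2 circle by the least. Over all circRNAs tested, 30.6% passed an adjusted p of 0.05, 16.5% higher in the hippocampus and 14.1% higher in the frontal cortex, and the median log2 fold change was 0.02. The intronic circle had too few reads to be tested.

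Scaled to the mean depth of the 36 samples, the exon 2 circle had 134.3 ± 21.8 normalised reads in the hippocampus (SD, n = 18; lowest 78.1, median 137.7, highest 163.9). Frontal cortex samples held 110.3 ± 28.9 (SD, n = 18; lowest 88.7, median 105.0, highest 217.8). The groups overlapped, and 17 of the 18 hippocampus samples lay above the frontal cortex median. The log2 fold change was 0.29 (SE 0.10), a 1.22-fold higher level, with an edgeR adjusted p of 0.0302. Without frontal cortex ZT9 replicate 3, the highest of all 36 values, the log2 fold change was 0.38 with an edgeR adjusted p of 0.0010, and without the 3 libraries that stood apart it was 0.42 with an adjusted p of 3.3e-05.

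The circles that start at exon 3 differed more. For the exon 3 to 9 circle the mean was 16.1 ± 4.79 normalised hippocampus reads against 9.60 ± 4.25 frontal cortex reads (SD, n = 18 each), a log2 fold change of 0.76 (SE 0.19, edgeR adjusted p = 0.0026). For exon 3 to 10 it was 15.5 ± 6.28 against 8.03 ± 4.59, a log2 fold change of 0.88 (SE 0.22, edgeR adjusted p = 0.0026). For exon 3 to 11 it was 11.5 ± 3.96 against 4.88 ± 3.04, a log2 fold change of 1.28 (SE 0.25, edgeR adjusted p = 0.00014), or 2.44-fold. Each lay above the fold of the exon 2 circle, while sample values of each overlapped between the tissues.

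Whether the 2 kinds of circle differed unequally was tested by the exon 2 circle's share of all reads of kept Slc8a1 circles. Kept circles were those found in at least 2 replicates of a time point. There were 5 in the hippocampus, the intronic circle with 26 reads among them, and 4 in the frontal cortex, without it. The share therefore does not set exon 2 against exon 3 circles alone, and the intronic reads lower it in the hippocampus only. Of the summed reads of the exon 2 and exon 3 circles, the exon 3 circles held 23.7% (hippocampus) and 17.6% (frontal cortex). That difference was not tested. The exon 2 share does not rest on scaling between samples. In the hippocampus the share was 74.8% ± 6.18 (SD, n = 18; lowest 54.8%, median 76.9%, highest 80.9%). Among frontal cortex samples it was 82.6% ± 4.68 (SD, n = 18; lowest 76.1%, median 82.4%, highest 91.5%). All 18 hippocampus samples lay below the frontal cortex median, and 10 of the 18 frontal cortex samples lay above the highest hippocampus sample. The difference in means was -7.83 percentage points (2-sided permutation test with 100000 resamples, p = 2e-05, adjusted p = 0.00012 over the 6 tests of shares). The lowest share came from the shallow library hippocampus ZT13 replicate 1, where 34 of 62 reads were from the exon 2 circle (95% Wilson interval 42.5% to 66.6%, counting error only). Without the 3 libraries that stood apart the difference was -6.21 points (permutation adjusted p = 0.00024).

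As a share of all reads of kept circRNAs, the exon 2 circle took 0.715% ± 0.0955 in the hippocampus (SD, n = 18; lowest 0.594%, median 0.6995%, highest 0.905%). Frontal cortex libraries gave 0.607% ± 0.263 (SD, n = 18; lowest 0.428%, median 0.548%, highest 1.63%). All 18 hippocampus samples were above the frontal cortex median, and 14 of 18 frontal cortex samples were below the lowest hippocampus sample. The difference in means of 0.108 percentage points did not pass (permutation p = 0.0897, adjusted p = 0.179). The spread in the frontal cortex came from ZT9 replicate 3 at 1.63% (95% Wilson interval 1.35% to 1.97%), while no other frontal cortex sample was above 0.719%. Without that library the difference was 0.168 points, with a permutation p of 1e-05, the smallest that these resamples can give, and an adjusted p of 6e-05.

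**Figure D2:**
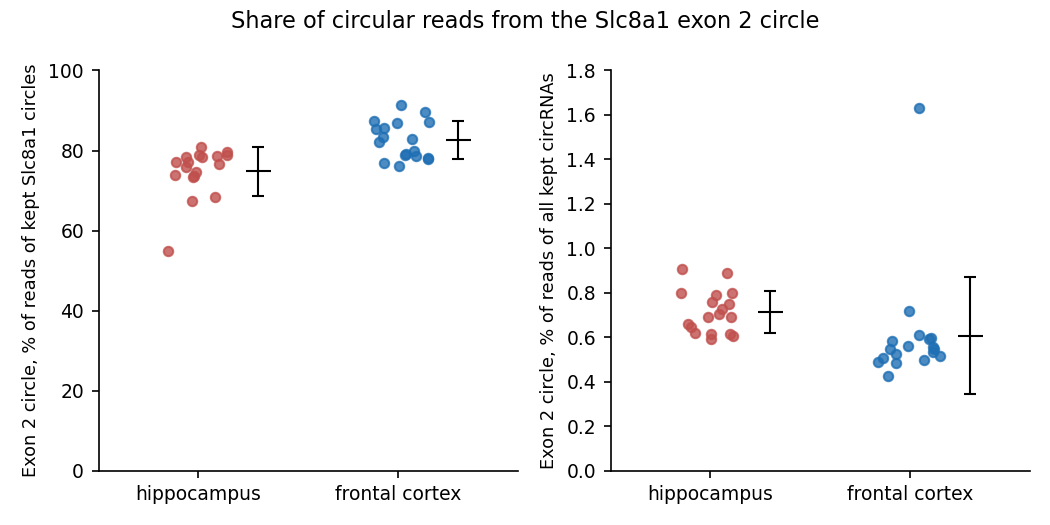
Share of reads from the exon 2 circle in each sample (points, 18 per tissue; black bars, mean ± SD), as % of the reads of kept Slc8a1 circles (left) and of all kept circRNAs (right). On the left the hippocampus lies lower, with means of 74.8% against 82.6%, and on the right 1 frontal cortex sample at 1.63% stands far from the others.

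The exon 2 circle was then set against 4 other abundant circles counted in the same libraries. These were Cdr1as (chrX:61183248-61186174), a circle with very many miR-7 sites, and the circles with most reads of Tulp4 (chr17:6137211-6139156), Gigyf2 (chr1:87364104-87380008), a translational repressor, and Dtnb (chr12:3617606-3648389), a dystrobrevin. Summed over hippocampus and then frontal cortex, unscaled reads were 24400 and 28768 for Cdr1as and 4917 and 3282 for Tulp4. They were 4396 and 3209 for Gigyf2, 2058 and 2040 for Dtnb, and 2646 and 1779 for the exon 2 circle. A ratio can differ between tissues through either of its circles. For each read of Cdr1as there were a median of 0.106 reads of the exon 2 circle in the hippocampus (0.0928 to 0.166) and 0.0538 in the frontal cortex (0.0384 to 0.748). The mean log2 ratio was 0.73 higher in the hippocampus (permutation test, adjusted p = 0.0026 over the 4 ratios). Relative to Dtnb the median was 1.25 (0.991 to 1.87) against 0.864 (0.697 to 3.82), and the mean log2 ratio was 0.49 higher (permutation adjusted p = 0.0019).

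Relative to Tulp4 and Gigyf2 no difference passed. For each Tulp4 read there were a median of 0.554 reads in the hippocampus (0.392 to 0.739) and 0.513 in the frontal cortex (0.413 to 2.06), and the mean log2 ratios differed by -0.0015 (permutation adjusted p = 0.994). For Gigyf2 the medians were 0.602 (0.457 to 0.784) and 0.546 (0.424 to 0.892), a difference of 0.10 in mean log2 ratio (permutation adjusted p = 0.293). Frontal cortex ZT9 replicate 3 gave the highest frontal cortex ratio to all 4 references. Without the 3 libraries that stood apart, the difference was 0.09 for Tulp4 (permutation adjusted p = 0.237) and 0.15 for Gigyf2 (adjusted p = 0.0407), which then passed.

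**Figure D3:**
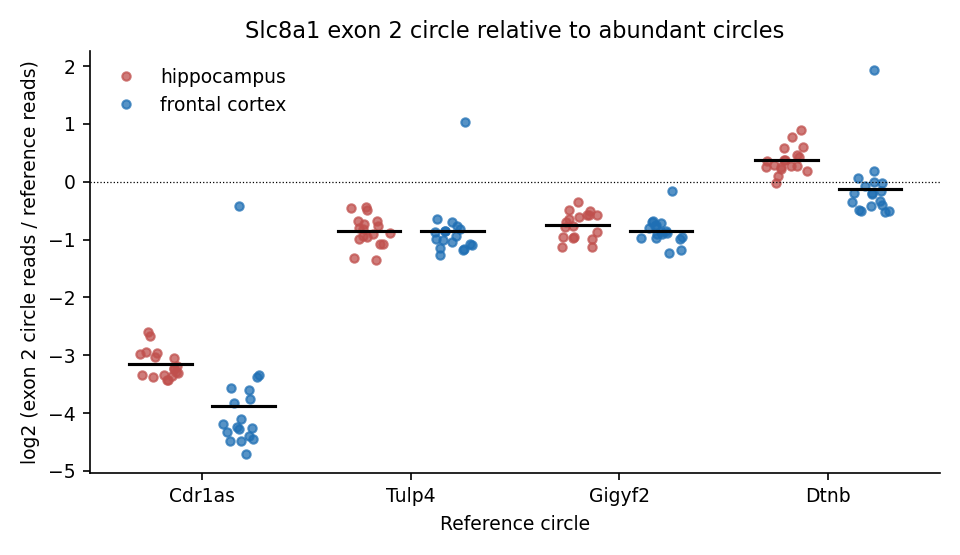
Log2 ratio of exon 2 circle reads to the reads of 4 reference circles in each sample (points; bars, tissue means of 18 samples). The tissue means are 0.73 apart for Cdr1as and 0.49 for Dtnb, and close together for Tulp4 and Gigyf2, and 1 frontal cortex sample lies high for every reference.

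The second comparison followed the exon 2 circle over the day. In the hippocampus at ZT1 the normalised reads of replicates 1 to 3 were 157.5, 152.6 and 143.4, at ZT5 163.6, 139.0 and 115.6, and at ZT9 141.6, 111.4 and 157.5. In the dark they were 78.1, 118.1 and 163.9 at ZT13, 127.4, 130.6 and 139.4 at ZT17, and 136.4, 121.8 and 119.0 at ZT21. The lowest hippocampus value belonged to the shallow ZT13 library with 34 reads, and replicates of ZT13 spanned more than the means of all 6 time points.

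In the frontal cortex the normalised reads of replicates 1 to 3 were 109.0, 88.7 and 105.5 at ZT1, 106.8, 97.4 and 104.6 at ZT5, and 101.0, 93.0 and 217.8 at ZT9. In the dark they were 92.1, 114.6 and 92.7 at ZT13, 109.0, 121.2 and 108.4 at ZT17, and 104.3, 89.7 and 129.1 at ZT21. The third ZT9 replicate lay above every other sample of either tissue, and the other 17 frontal cortex samples lay between 88.7 and 129.1.

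Ordered by mean, the 12 groups ran from hippocampus ZT1 at 151.2 ± 7.12 (SD, n = 3) down to frontal cortex ZT13 at 99.8 ± 12.8 (SD, n = 3). The 6 hippocampus groups and frontal cortex ZT9 (137.3 ± 69.8) filled the upper 7 places. Neighbours in this order differed by at most 0.85 of their pooled SD. Sorting by mean makes such gaps small in advance, so they do not tell whether groups differ. The hippocampus mean was the higher one at 5 of 6 time points, and ZT9 was the exception.

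**Figure D4:**
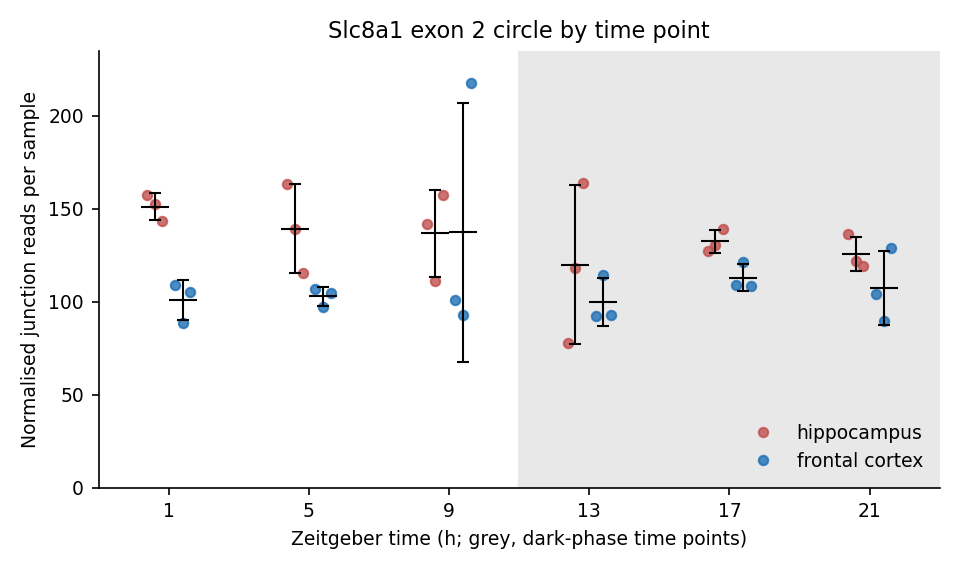
Normalised junction reads of the exon 2 circle (y axis, from 0) by zeitgeber time (x axis, h) in hippocampus and frontal cortex, 3 samples a group, with mean ± SD in black and dark-phase time points shaded. Hippocampus means lie between 120.0 and 151.2 and frontal cortex means between 99.8 and 137.3, the latter raised by 1 ZT9 sample.

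No test over time found a difference in the exon 2 circle. Dark-phase samples averaged 126.1 ± 22.8 normalised reads in the hippocampus against 142.5 ± 18.4 in the light (SD, n = 9 each), a log2 fold change of -0.16 (SE 0.14, edgeR adjusted p = 1.0). It was -0.09 without the shallow ZT13 replicate 1 (edgeR adjusted p = 0.977) and -0.27 without ZT13 replicate 3 (edgeR adjusted p = 0.862). Those of the frontal cortex averaged 106.8 ± 13.6 against 113.8 ± 39.6, a log2 fold change of -0.11 (SE 0.16, edgeR adjusted p = 0.993). Without ZT9 replicate 3 the frontal cortex value turned to 0.08 (edgeR adjusted p = 0.916). The share of circRNAs called dark against light by edgeR was 0% in both tissues. An unadjusted p under 0.05 was reached by 28 of 582 hippocampus and 16 of 518 frontal cortex circRNAs, and DESeq2 called 0 in either.

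Over the 6 time points together the fitted means of the exon 2 circle spanned 0.29 on the log2 scale (hippocampus, edgeR adjusted p = 1.0) and 0.49 (frontal cortex, edgeR adjusted p = 0.996). The frontal cortex span was 0.20 without ZT9 replicate 3 (edgeR adjusted p = 0.971), and the hippocampus span was 0.63 without ZT13 replicate 3 (edgeR adjusted p = 0.963). A 24 h cosine had a log2 amplitude of 0.10 (edgeR adjusted p = 1.0) and 0.11 (edgeR adjusted p = 0.930), and the hippocampus amplitude was 0.06 without ZT13 replicate 1 and 0.17 without ZT13 replicate 3. Among the 6 steps between neighbouring time points, its smallest edgeR adjusted p was 0.930 (hippocampus) and 0.884 (frontal cortex). By the test over 6 time points edgeR called 0% of hippocampus circRNAs, where 19 had an unadjusted p under 0.05, and 0.193% (1 of 518) of those of the frontal cortex, and DESeq2 called 0 in either. By the 24 h cosine edgeR called 0% in both tissues, and DESeq2 called 1 in each. An unadjusted edgeR p under 0.05 was reached by 13 hippocampus and 25 frontal cortex circRNAs. The interaction test found no difference past the threshold between the dark against light changes of the tissues (difference of log2 fold changes -0.10, SE 0.21, edgeR adjusted p = 1.0), where 0 of 710 circRNAs were called by edgeR, 30 had an unadjusted p under 0.05 and DESeq2 called 1. That difference was -0.03 without hippocampus ZT13 replicate 1 and -0.24 without frontal cortex ZT9 replicate 3, and it ran between these values with any other sample left out.

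The exon 3 circles did not pass either. In the hippocampus their dark minus light log2 fold changes were 0.37 (SE 0.20) for the exon 3 to 9 circle, 0.05 (SE 0.21) for exon 3 to 10 and 0.14 (SE 0.23) for exon 3 to 11, all with an edgeR adjusted p of 1.0. Frontal cortex values were 0.51 (SE 0.34) for exon 3 to 9 and 0.15 (SE 0.43) for exon 3 to 10, both with an edgeR adjusted p of 0.993, and the exon 3 to 11 circle had too few reads there to be tested alone. The exon 2 share of Slc8a1 reads was 72.4% ± 7.94 in the dark and 77.2% ± 2.28 in the light in the hippocampus (SD, n = 9 each; exact permutation p = 0.0865, adjusted p = 0.179). The difference of -4.79 points was -2.59 without ZT13 replicate 1 (exact permutation p = 0.171, adjusted p = 0.258). For the frontal cortex the shares were 81.1% ± 4.96 and 84.2% ± 4.102 (exact permutation p = 0.172, adjusted p = 0.258). The exon 2 circle's share of all reads of kept circRNAs differed by -0.0540 points (hippocampus, exact permutation adjusted p = 0.288) and -0.0969 points (frontal cortex, adjusted p = 0.771). The first was -0.0335 without ZT5 replicate 1, and the second turned to 0.0252 without ZT9 replicate 3 (exact permutation adjusted p = 0.459).

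Slc8a1 works beside other genes that move calcium, and a list of 58 such genes (exchangers, pumps, release channels, voltage-gated channels, store-operated channels, mitochondrial carriers and calmodulin kinases) was followed in the same tissue test. It was chosen with earlier results of these data known. Circles of 9 of the 58 genes had enough reads, 14 circles in all. Of these, 7 passed with a higher hippocampus level and 1 with a higher frontal cortex level, against 16.5% and 14.1% of all circRNAs tested. The median log2 fold change was 0.35 over the 14 and 0.02 over all 710. The 4 Slc8a1 circles made up most of the higher ones, and over the other 10 circles the median was -0.09, with 3 higher in the hippocampus and 1 higher in the frontal cortex.

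Among the voltage-gated calcium channels, the Cacna1c circle with most reads (chr6:119052601-119057515), from the L-type channel gene, had 385 hippocampus and 146 frontal cortex reads, a log2 fold change of 1.203 (SE 0.26, edgeR adjusted p = 0.00052). The Cacna1e circle (chr1:154700371-154725920), from the R-type channel gene, had 148 and 40, a log2 fold change of 1.68 (SE 0.41, edgeR adjusted p = 0.0018). The Cacna1b circle (chr2:24719045-24720056), from the N-type channel gene, went the other way with 55 and 88 reads, a log2 fold change of -1.50 (SE 0.47, edgeR adjusted p = 0.0143). Channel circles that did not pass were those of Cacna1a at -0.27 (SE 0.13, edgeR adjusted p = 0.123), Cacna2d1 at -0.67 (SE 0.35), Cacna2d3 at -0.17 (SE 0.22) and a second Cacna1c circle (chr6:118776417-118780324) at -0.26 (SE 0.47) on the log2 scale. That second circle falls outside the naming rule and was added after its values were seen.

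Of the ryanodine receptors, which release calcium from the endoplasmic reticulum, 1 Ryr2 circle (chr13:11680966-11688013) was higher in the hippocampus, with 395 against 245 reads and a log2 fold change of 0.40 (SE 0.15, edgeR adjusted p = 0.0369). The Ryr2 circle with most reads (chr13:11759671-11785141) had a log2 fold change of -0.01 (SE 0.14, edgeR adjusted p = 1.0) and the Ryr3 circle 0.43 (SE 0.28, edgeR adjusted p = 0.267). Circles of the pumps, the store-operated channels, the mitochondrial carriers and the calmodulin kinases had too few reads to be tested. Within the tissues, 0 of the 11 list circles tested among hippocampus samples and 0 of 9 among frontal cortex samples were called dark against light, over the 6 time points or as a 24 h rhythm by edgeR, and 0 had an unadjusted p under 0.05.

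**Figure D5:**
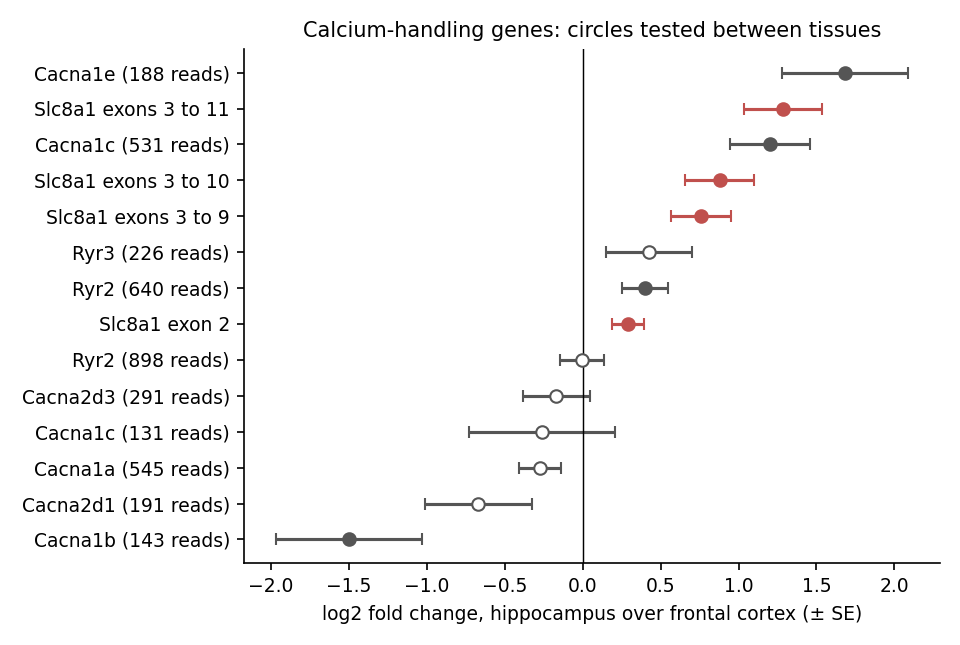
Log2 fold change, hippocampus over frontal cortex, of the 14 tested circles of calcium-handling genes (points; bars, SE; filled, edgeR adjusted p under 0.05), with Slc8a1 in red. The 4 Slc8a1 circles lie between 0.29 and 1.28, and the Cacna1b circle at -1.50 is the one called lower in the hippocampus.

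The circRNAs whose levels followed the exon 2 circle most closely from sample to sample were ranked by the mean of the Pearson r within each tissue (18 samples each, log2 CPM, 709 circRNAs compared). The first 5 were circles of Hivep2 (mean r 0.66), Gm26917 (0.65), Grin2b, an NMDA receptor subunit gene (0.60), Arhgap32 (0.57) and Mboat2 (0.56), and the median over all was -0.01. The samples share depth and scaling with each other. Within the frontal cortex these correlations rested on ZT9 replicate 3, since without it r ran from -0.10 (Gm26917, a circle with 7 frontal cortex reads) to 0.30 (Hivep2). The circles of Slc8a1 itself were not among them, with mean r of 0.17 for exon 3 to 9, -0.38 for exon 3 to 10 and -0.23 for exon 3 to 11.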

How the data were processed

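The authors aligned single-end reads of 150 bases to the mouse genome (GRCm38) with BWA, called circRNAs with CIRI2 and deposited counts of back-splice junction reads for each circRNA and sample. No listed count lies between 0 and 2. Of the deposited columns, 1 matched no sample label and was not used, and 36 were. Host genes were assigned by position and strand in GENCODE M21. As in the study, circRNAs found in at least 2 of 3 replicates of a time point were kept. Counts were fitted by edgeR 4.0.16 (R 4.3.3; filterByExpr by group, TMM, quasi-likelihood test, adjusted p under 0.05), over all 36 samples between tissues and within each tissue over time. Shares and ratios were compared by 2-sided permutation tests (Python, numpy), exact for 9 against 9 samples. Fits were tested on simulated data. DESeq2 1.42.0, other scalings and filters, and samples left out served as alternatives. Named were the main circle, each other kept Slc8a1 circle, 4 reference circles, the calcium-handling circles with most reads of a gene or called, and the 5 circRNAs most like the main circle. Members and lists were chosen with earlier results of these data known. Intervals cover counting error only. Total sequenced reads and linear counts were not used here.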

Additional observations from a re-analysis of the deposited data

Results flagged for a closer look

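In 12 groups of 9 samples (each tissue and phase, for 3 measures of the exon 2 circle), the gap of the highest or lowest sample to its nearest neighbour was set against the range of the group. Chance flags about 1 group in 20, and 2 groups were flagged, both by frontal cortex ZT9 replicate 3. It held 217.8 normalised reads of the exon 2 circle, the highest of 9 light-phase samples. The circle made up 1.63% of that library's 6555 reads of kept circRNAs. Both values describe the same 107 reads of 1 library, which held 8107 circular reads before circRNAs were filtered. The Cdr1as ratio of that library was the highest of its tissue too, and its part in these values was not tested.

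On the strand opposite to Slc8a1, 1 circle inside the gene had 5 hippocampus reads and 0 frontal cortex reads. The other two circles on that strand had 2 and 0 reads, and 0 and 3 reads, in the same order of tissues. They stand outside the comparisons above, which used the strand of the gene.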

How the results depend on the processing

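Of 145 values under alternatives other than leaving out 1 sample, 134 kept direction and side of the threshold. The tissue difference of the exon 2 circle passed under all of them, with log2 fold changes of 0.28 to 0.42 and edgeR or DESeq2 adjusted p of 3.3e-05 to 0.0446, and with any 1 sample left out (0.28 to 0.38). Without the filter on low counts, 346 circRNAs were called between the tissues, with a median log2 fold change of 0.15 over all. The 24 h cosine then called 614 of 5505 hippocampus and 521 of 4790 frontal cortex circRNAs. The exon 2 circle was called by it under no alternative. Listing every circle raised the number of Slc8a1 circles to 13 and 9. The tissue difference in the share of all reads of kept circRNAs passed on the log2 scale (0.30, permutation adjusted p = 0.0137). It also passed without the 3 libraries that stood apart (0.18 points). With 1 sample left out it ran from 0.096 to 0.168. Without those 3 libraries the Gigyf2 ratio differed by 0.15 and the Tulp4 ratio by 0.092. With 1 sample left out the Tulp4 ratio ran from -0.026 to 0.11. Differences not called also changed sign. In the frontal cortex, dark minus light of the exon 2 circle was 0.015 without the filter and 0.076 without ZT9 replicate 3 (alone or with the other libraries that stood apart), with -0.15 to 0.076 over single samples left out. Its share differed by 0.025 points without ZT9 replicate 3 (-0.118 to 0.025 over single samples left out). The interaction was 0.013 when scaled to total circular reads. Causes were not tested. Samples with the same number did not deviate together (18 pairs between tissues, mean r -0.02), and a replicate block changed no call of the exon 2 circle. With it the tissue log2 fold change was 0.30 (edgeR adjusted p = 0.0247), and 188 circRNAs were called in place of 217. Depth left the intronic circle untested, and the exon 3 to 11 circle untested within the frontal cortex.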
